A study of Mus musculus with 6 samples.

Results

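The receptors for IgG and the first enzymes behind them were described in microglia with and without the transcription factor Bhlhe41. The set held 8 genes of the 23462 that had a named probe on the array: the Fc gamma receptors Fcgr1, Fcgr2b, Fcgr3 and Fcgr4, the adaptor Fcer1g, the neonatal Fc receptor Fcgrt, the kinase Syk and the phosphatase Inpp5d. Members were listed by gene name, with earlier results of these data known. Every array probe designed on a transcript of one of them was taken, which gave 10 of 56601 probes, with Fcgr2b and Syk read by 2 each. All 10 were well above background on all 6 arrays. The cells were live CD45low CD11b+ Cx3cr1+ microglia, sorted from brains of C57BL/6 mice aged 3 months, and each of the 6 samples was hybridised in 1 colour to an Agilent mouse expression array. In the 3 B41HET samples (Bhlhe41 dTomato-Cre/+) 1 allele carried a dTomato and Cre cassette that ends translation of Bhlhe41, and in the 3 B41KO samples (Bhlhe41 dTomato-Cre/dTomato-Cre) both did. Both genotypes thus carried the cassette under the Bhlhe41 promoter, and no mouse without it was among the arrays. According to the Methods each sample pooled the cells of several mice, whereas by the labels a genotype stood for 3 mice, and p-values measured only the spread between these samples.

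Fc gamma receptors bind the constant part of IgG on opsonised particles. Fcgr1, Fcgr3 and Fcgr4 are activating receptors that reach the surface together with the common gamma chain Fcer1g, whose phosphorylated ITAM recruits Syk and starts phagocytosis and cytokine release. Fcgr2b is the only inhibitory receptor of the family, and its ITIM recruits the phosphatase Inpp5d (SHIP-1), which removes the lipid that phosphoinositide 3-kinase makes.

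Signals are given as log2 intensities after quantile normalization, and a probe or gene was called when limma, with Benjamini-Hochberg adjustment over all 56601 probes, put its adjusted p at no more than 0.05 and the log2 fold change (B41KO minus B41HET) was at least 0.5 in size. Where a gene had several probes the brightest stood for it. Brightness cannot be compared between probes, so each gene was set against itself in the other genotype. The differences and sums over several probes given below were likewise compared only between genotypes. Of the 8 genes, 3 were called, Fcgr2b and Fcgr1 lower and Fcgr4 higher in B41KO, and 5 were not, against 5.45% of all genes called, 4.01% of them lower and 1.44% higher. By probe, 4 of 10 were called, 3 lower and 1 higher, against 5.07% of all probes, 3.34% lower and 1.72% higher. In 6 of the 8 genes the samples of the genotypes did not overlap, against 32.2% of all genes, and the same held for 7 of the 10 probes, against 29.7% of all probes. The median log2 fold change of the 8 genes was -0.23 and that of all genes 0.0067. The 8 genes did not share a direction, with log2 fold changes from -0.75 to 0.67, and 5 of them were below 0, against 48.8% of all genes.

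**Figure D1:**
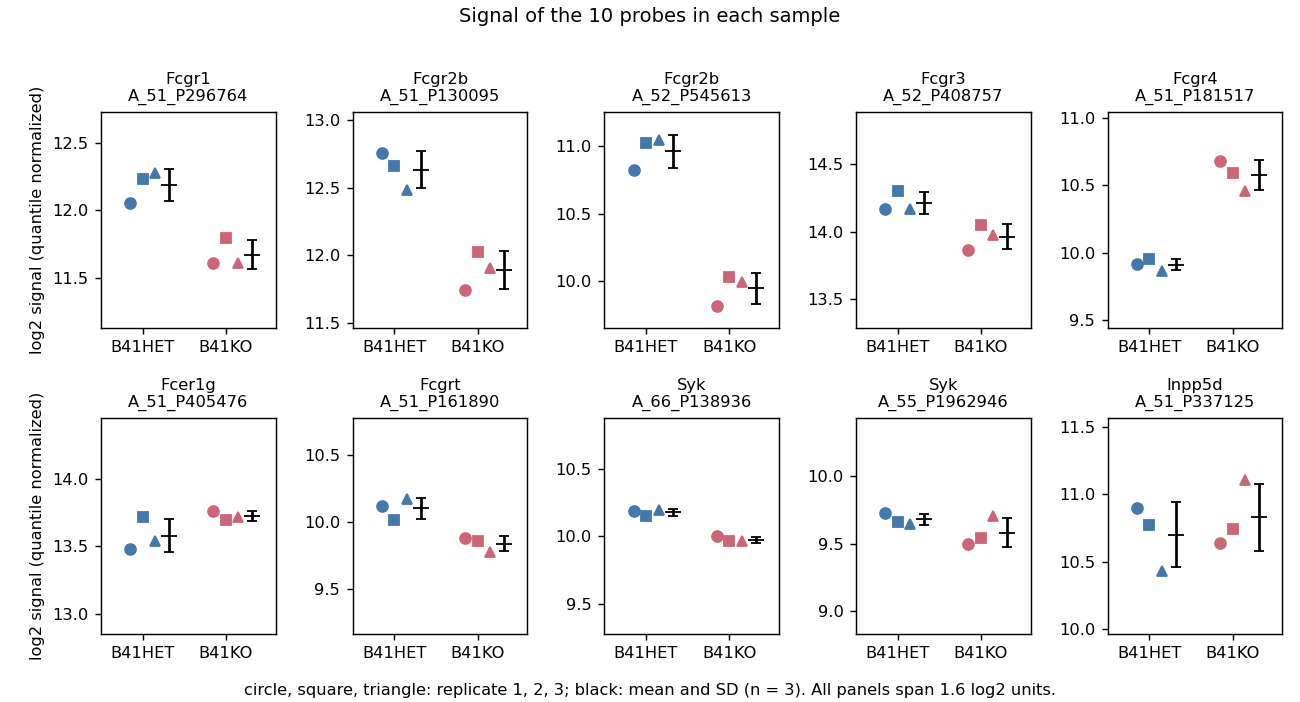
Quantile-normalized log2 signal of the 10 probes in each of 3 B41HET and 3 B41KO samples, 1 panel per probe, with the mean and SD beside the points and panels of equal height in log2 units. The B41KO points lie below all B41HET points for Fcgr1, both Fcgr2b probes, Fcgr3, Fcgrt and the brighter Syk probe, above them for Fcgr4, and among them for Fcer1g, Inpp5d and the other Syk probe.

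The 4 receptor genes are shown by their promoters, since they differed in direction while 3 of them, Fcgr2b, Fcgr4 and Fcgr3, follow each other on chromosome 1. Each sequence runs 5′ to 3′ on the gene's strand from 250 bases before to 50 after the transcript start, from RefSeq on GRCm38.p6. Capitals mark GAGGAA or its reverse complement TTCCTC, a form of the site of the myeloid factor PU.1. The Fcgr1 window is chr3:96293920-96294219 on the minus strand, that of Fcgr2b chr1:170976022-170976321 on the minus strand, that of Fcgr4 chr1:171018676-171018975 on the plus strand and that of Fcgr3 chr1:171059354-171059653 on the minus strand.
Fcgr1: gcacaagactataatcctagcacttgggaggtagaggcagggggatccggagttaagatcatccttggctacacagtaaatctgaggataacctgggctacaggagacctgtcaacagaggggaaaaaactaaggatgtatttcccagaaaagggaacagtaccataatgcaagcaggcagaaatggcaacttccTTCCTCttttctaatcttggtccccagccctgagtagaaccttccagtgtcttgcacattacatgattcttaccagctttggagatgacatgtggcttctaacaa
Fcgr2b: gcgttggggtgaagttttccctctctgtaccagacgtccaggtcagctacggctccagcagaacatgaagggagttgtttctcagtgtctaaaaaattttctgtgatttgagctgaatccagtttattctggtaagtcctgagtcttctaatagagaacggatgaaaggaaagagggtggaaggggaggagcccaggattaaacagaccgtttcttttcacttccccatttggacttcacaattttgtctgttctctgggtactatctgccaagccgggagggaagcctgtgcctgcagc
Fcgr4: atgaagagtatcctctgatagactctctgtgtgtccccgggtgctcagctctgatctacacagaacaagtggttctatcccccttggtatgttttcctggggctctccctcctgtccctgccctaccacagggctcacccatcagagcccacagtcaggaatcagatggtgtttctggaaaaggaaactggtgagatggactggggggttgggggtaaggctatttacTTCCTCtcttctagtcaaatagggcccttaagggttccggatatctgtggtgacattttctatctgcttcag
Fcgr3: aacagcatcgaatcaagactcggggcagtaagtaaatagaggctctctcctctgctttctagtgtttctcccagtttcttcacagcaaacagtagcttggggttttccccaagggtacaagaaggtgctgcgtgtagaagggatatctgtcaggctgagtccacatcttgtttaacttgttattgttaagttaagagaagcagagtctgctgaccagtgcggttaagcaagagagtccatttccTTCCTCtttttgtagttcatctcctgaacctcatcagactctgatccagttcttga
GAGGAA, searched on both strands, was in the windows of Fcgr1, Fcgr3 and Fcgr4, its first base at -55, -6 and -22 from the start, and these letters were not in the Fcgr2b window. Over the 10 windows of the 8 genes, Fcgr3 and Syk having 2 starts each, it was in 6, against 28.3% of all 32851 promoter windows. The 2 Fcgr3 windows overlap and share the same match, which was counted in both, and by gene it was in 5 of 8. The E-box CACGTG, a site that Bhlhe41 binds, was in 0 of the 10 windows, against 7.15% of all. The looser E-box CANNTG, which includes CACGTG, was in 7 of the 10, Fcgr1, Fcgr2b and Fcgr4 among them and Fcgr3 not, against 72.3% of all. TTCNNNGAA, the letters of a STAT site, was in the Fcgr1 window alone of the 10, against 8.30% of all. A match is only a match of letters in a short window, and shorter or other forms of the PU.1 site were not searched.

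Of the activating receptors, Fcgr1 was called lower, Fcgr4 was called higher and Fcgr3 was not called. Fcgr1, the high-affinity IgG receptor (CD64), had log2 signals of 12.05, 12.23 and 12.28 in the B41HET samples and 11.61, 11.80 and 11.61 in the B41KO samples. All 3 B41KO samples lay below all B41HET samples, with a gap of 0.26 between the nearest. The means were 12.19 ± 0.12 and 11.67 ± 0.11 (SD, n = 3 each), and the log2 fold change of -0.52 (SE 0.099, 95% confidence interval -0.76 to -0.27) corresponded to a 1.43-fold lower signal, with an adjusted p of 0.0409 by limma. Of all genes, 7.37% had a more negative log2 fold change. Fcgr1 was thus just past both thresholds, and it lost its call when any single sample was left out, with adjusted p from 0.0718 to 0.137 by limma and log2 fold changes from -0.58 to -0.47.

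Fcgr4, the receptor of intermediate affinity for IgG2a and IgG2b, was the only member called higher. Its log2 signals were 9.92, 9.95 and 9.87 in the B41HET samples and 10.68, 10.59 and 10.46 in the B41KO samples. The B41HET samples lay close together, and the lowest B41KO sample was 0.51 above the highest of them. From 9.91 ± 0.04 to 10.58 ± 0.11 (SD, n = 3 each) the log2 fold change was 0.67 (SE 0.084, interval 0.46 to 0.87), a 1.59-fold higher signal with an adjusted p of 0.0148 by limma. A larger increase was seen in 2.84% of all genes. The call held without B41KO replicate 1 (adjusted p = 0.0491 by limma) or replicate 3 (adjusted p = 0.0306) and was lost without B41KO replicate 2 or any B41HET sample, with adjusted p from 0.0578 to 0.0655.

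Fcgr3, the low-affinity activating receptor (CD16), had the signals 14.17, 14.30 and 14.17 in B41HET and 13.86, 14.05 and 13.97 in B41KO. The B41KO samples were all lower, but by a gap of only 0.12 between the nearest samples. The log2 fold change was -0.25 (SE 0.085, interval -0.46 to -0.04), with an adjusted p of 0.156 by limma, so that Fcgr3 passed neither threshold. Its interval did not reach the log2 fold change of either Fcgr2b probe.

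Fcgr2b, the inhibitory receptor (CD32b), fell on both of its probes, with the more negative change on the dimmer one. The brighter probe, designed on RefSeq transcript NM_001077189, read 12.76, 12.66 and 12.49 in B41HET and 11.74, 12.02 and 11.90 in B41KO. The other, designed on NM_010187, read 10.82, 11.02 and 11.04 in B41HET and 9.81, 10.03 and 9.99 in B41KO. On both probes every B41KO sample lay below every B41HET sample, by 0.47 and 0.79 between the nearest, while the B41HET samples stood in opposite orders on the 2 probes and the B41KO samples in the same order.

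On the brighter probe the mean fell from 12.64 ± 0.14 to 11.89 ± 0.14 (SD, n = 3 each), a log2 fold change of -0.75 (SE 0.11, interval -1.03 to -0.47) or 1.68-fold, with an adjusted p of 0.0234 by limma. On the other it fell from 10.96 ± 0.12 to 9.95 ± 0.12, a log2 fold change of -1.02 (SE 0.10, interval -1.27 to -0.76) or 2.02-fold, with an adjusted p of 0.00861. The intervals of the 2 probes overlapped, and the difference between them was not tested. Among all genes 3.21% had a more negative change than the brighter probe and 1.52% than the other. The study names Fcgr2b among genes that differed both on these arrays and in public RNA sequencing of microglia without Bhlhe40 and Bhlhe41. Its call here, from the same arrays, was not an independent finding. The brighter probe kept its call only without B41HET replicate 3 (adjusted p = 0.0485 by limma) among the 6 fits that each left out 1 sample, where adjusted p ran from 0.0485 to 0.0929, and the other probe kept its call in all 6, from 0.0298 to 0.0486. Fcgr2b and Fcgr3 are alike in the sequence that codes for their extracellular parts, and since the probe sequences were not used here, neither cross-hybridisation between them nor the isoform each probe reads was assessed. The arrays measured RNA only. The Methods name an antibody to CD16 and CD32, the products of Fcgr3 and Fcgr2b, as a blocking reagent in surface staining, without saying whether it was used in this sort, and any part of it in these values was not tested.

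**Figure D2:**
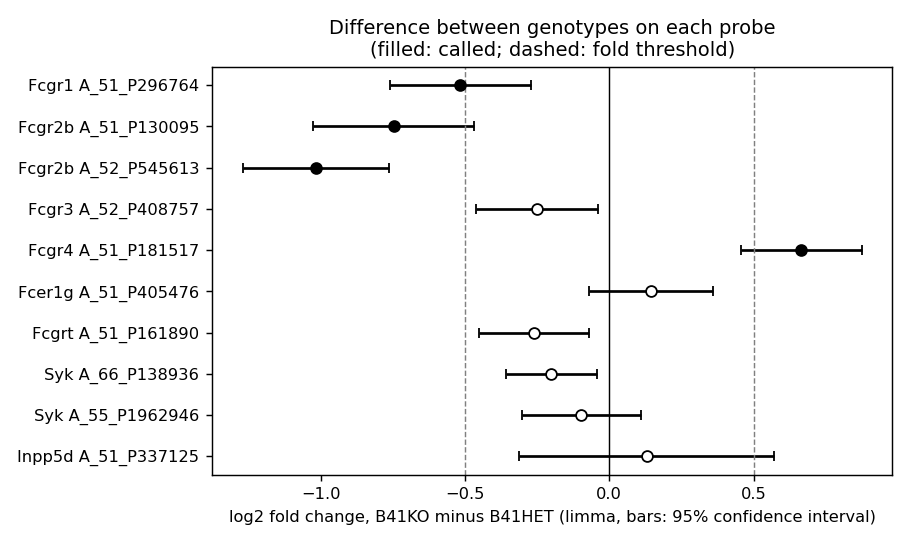
Log2 fold change (B41KO minus B41HET) of each of the 10 probes with its 95% confidence interval from limma, filled where called, with dashed lines at the fold threshold of 0.5 in either direction. Both Fcgr2b probes and the Fcgr1 probe lie left of -0.5, Fcgr4 lies right of 0.5, and the intervals of Fcer1g, Inpp5d and the dimmer Syk probe include 0.

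An exact permutation test over the 6 samples cannot give a two-sided p below 0.1 for 3 against 3, and each of the 7 probes without overlap had that p of 0.1.

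To ask whether inhibitory and activating receptors changed unequally within the same samples, the log2 signal of Fcgr2b (brighter probe) was set against that of each activating receptor on the same array. The level of such a difference has no meaning, since it joins 2 probes, but its change between genotypes has. Fcgr2b minus Fcgr4 was 2.84, 2.71 and 2.62 in B41HET and 1.06, 1.43 and 1.45 in B41KO. The difference was smaller in all B41KO arrays, by 1.17 between the nearest arrays, and its mean changed by -1.41. Fcgr2b was lower and Fcgr4 higher in B41KO, each without overlap. The separation of this pair and its p below were therefore fixed in advance on either Fcgr2b probe, and the pair was no separate test. Fcgr2b minus Fcgr3 was -1.41, -1.64 and -1.68 in B41HET and -2.12, -2.03 and -2.07 in B41KO, again without overlap, and changed by -0.50. Fcgr2b minus Fcgr1 was 0.70, 0.43 and 0.21 in B41HET and 0.13, 0.22 and 0.30 in B41KO, so that the genotypes overlapped, and changed by -0.23, or by -0.10 without B41HET replicate 1. By a two-sided exact permutation test over samples p was 0.1, the smallest possible, for Fcgr4 and for Fcgr3 (0.15 adjusted over the 3 comparisons) and 0.3 for Fcgr1 (0.3 adjusted). With the other Fcgr2b probe, a choice made after seeing the data, the genotypes did not overlap for any of the 3 pairs, Fcgr1 included, and the changes were -0.50 for Fcgr1, -0.77 for Fcgr3 and -1.68 for Fcgr4 (exact permutation p = 0.1 each, 0.1 adjusted). Whether the genotypes overlapped for the pair with Fcgr1 thus depended on the Fcgr2b probe.

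**Figure D3:**
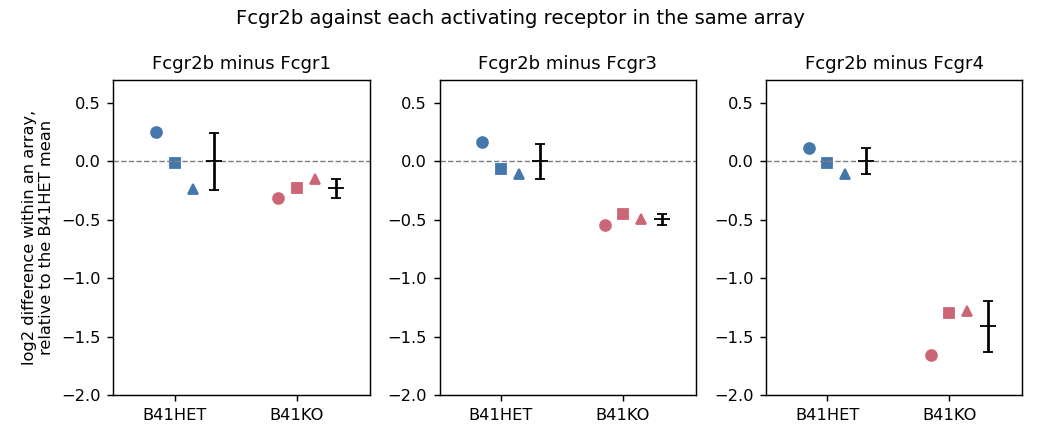
Per-array log2 difference of Fcgr2b (brighter probe) and each activating receptor, drawn relative to the B41HET mean of that pair, with points for the 3 arrays of each genotype and the mean and SD beside them. The B41KO arrays lie below all B41HET arrays for the pairs with Fcgr3 and Fcgr4, and overlap them for the pair with Fcgr1 on this probe.

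Downstream of the receptors no member was called. Fcer1g, the gamma chain that the activating receptors share, had signals of 13.48, 13.71 and 13.54 in B41HET and 13.76, 13.69 and 13.71 in B41KO. B41HET replicate 2 lay among the B41KO samples and the other two B41HET samples below them. The log2 fold change was 0.15 (SE 0.087, interval -0.07 to 0.36, adjusted p = 0.390 by limma), an interval that includes 0.

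Syk, the kinase that docks on the phosphorylated gamma chain, was read by 2 probes. The brighter one gave 10.185, 10.147 and 10.197 in B41HET and 10.001, 9.961 and 9.963 in B41KO. These were the tightest samples of any member, the B41KO samples all lower by a gap of 0.15 between the nearest, and yet the log2 fold change of -0.20 (SE 0.063, interval -0.36 to -0.04) had an adjusted p of 0.132 by limma. On the dimmer probe the samples overlapped, from 9.65 to 9.73 in B41HET and from 9.50 to 9.71 in B41KO, and the log2 fold change was -0.10 (SE 0.083, adjusted p = 0.564).

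Inpp5d, the inhibitory phosphatase, spread most within each genotype. Its signals were 10.90, 10.77 and 10.43 in B41HET and 10.64, 10.74 and 11.11 in B41KO. The extremes were B41HET replicate 3 and B41KO replicate 3, and of the other four samples both B41HET samples lay above both B41KO samples, against the direction of the means. The log2 fold change was 0.13 (SE 0.18, interval -0.31 to 0.57, adjusted p = 0.727 by limma), an interval too wide to exclude a change as large as the fold threshold upwards.

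Fcgrt, which carries IgG through endosomes away from degradation and is no phagocytic receptor, had signals of 10.12, 10.01 and 10.17 in B41HET and 9.88, 9.86 and 9.78 in B41KO. All B41KO samples were lower, by 0.13 between the nearest. The log2 fold change was -0.26 (SE 0.077, interval -0.45 to -0.07), with an adjusted p of 0.114 by limma. Its partner chain B2m was not called either, with a log2 fold change of -0.10.

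**Figure D4:**
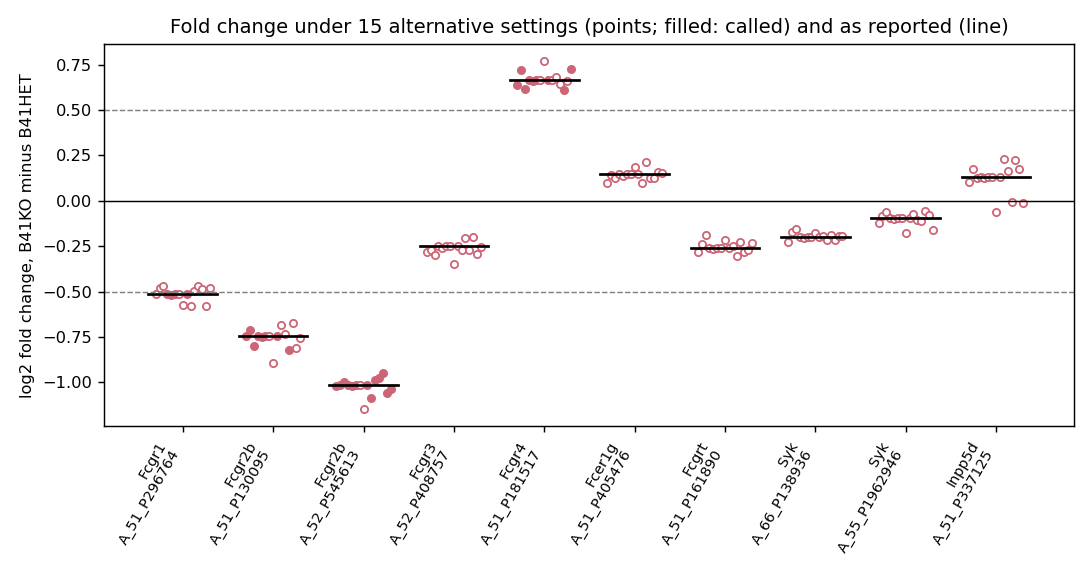
Log2 fold change of each member probe under 15 alternative settings (points, filled where called) and as reported (line), with dashed lines at the fold threshold. The dimmer Fcgr2b probe was called under 13 settings, Fcgr4 under 9, the brighter Fcgr2b probe under 8 and Fcgr1 under 4, and Inpp5d alone crosses 0.

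All 6 arrays lay on 1 slide, where the 3 B41HET arrays and B41KO replicate 1 were in row 1 and the other two B41KO arrays in row 2. A fit that blocked on the slide row, and so left B41KO replicate 1 to be compared with the 3 B41HET arrays of its row, gave log2 fold changes of -0.89 and -1.15 for the Fcgr2b probes, -0.58 for Fcgr1 and 0.77 for Fcgr4, none called (adjusted p from 0.0533 to 0.181 by limma). The targeted gene gave no check of the labels: the 2 Bhlhe41 probes were not lower in B41KO, with log2 fold changes of 0.38 and 0.33 (adjusted p = 0.330 and 0.203 by limma).

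The cells were checked against markers of the types a brain sort could hold, and in such bulk samples fewer cells of a type and less RNA per cell cannot be told apart. All 10 microglia markers were well above background on all 6 arrays, and 0 of 10 were called (3 at an unadjusted p of 0.05 or less by limma), with log2 fold changes from -0.28 to 0.32. Of 10 neutrophil markers 8 were called lower, with a list median of -2.35, and their summed intensity ranged from 30542 to 34403 in B41HET and from 6118 to 6497 in B41KO. Ltf (-3.17) and Ngp (-3.13), of the secondary granules, had the most negative changes on the list, and Mpo (0.39) and Elane (-0.04), of the primary granules, were not called. The monocyte list had 3 of 6 called lower (summed 1428 to 1498 in B41HET and 404 to 425 in B41KO). On the border macrophage list 4 of 8 were called lower, namely Cbr2, Ms4a7, Cd163 and Pf4 (2351 to 2541 and 1601 to 1791). Mrc1 and Lyve1 were dim and not called (adjusted p = 0.0745 and 0.0974 by limma). They were well above background on all B41HET arrays, at means of 3.99 and 3.27, and on no B41KO array. Neutrophils, monocytes and border macrophages carry Fc gamma receptors of their own. By its design the gate on CD45low Cx3cr1+ cells leaves out neutrophils, which are CD45high and lack Cx3cr1. It also leaves out most monocytes and border macrophages, which carry more CD45 than microglia. How many such cells the sorted samples still held was not tested. Ltf and Ngp had mean log2 signals of 12.88 and 12.66 in B41HET and 9.71 and 9.53 in B41KO. The markers called on these 3 lists thus moved in the direction of Fcgr1 and Fcgr2b and against that of Fcgr4, and their part in the receptor values was not tested.

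In the B cell, NK cell and mast cell lists at most 1 marker was called. Of 8 B cell markers, Cd79a alone was called (-0.99), the summed intensity ranged from 1298 to 1485 in B41HET and from 1399 to 1422 in B41KO, and the defining marker Ms4a1 was well above background on no array. B cells express Fcgr2b as their only classical Fc gamma receptor. Of 6 NK cell markers 0 were called (0 also at an unadjusted p of 0.05 or less by limma), with sums of 866 to 1068 and 993 to 1383. The dendritic cell list had 2 of 6 lower (sums of 321 to 365 and 177 to 205, Xcr1 well above background on no array), and the mast cell and basophil list 1 of 6 lower, Gata2, which like Cpa3 was well above background on no array (sums of 1949 to 2284 and 2086 to 2498). These last sums were carried mostly by Tpsb2 (means of 10.99 and 11.05). Mcpt8 was at -0.78 and not called (adjusted p = 0.0768 by limma), and the remaining markers of that list lay above 0. The endothelial list had 2 of 8 lower (sums of 1158 to 1264 and 407 to 460), namely Pecam1 and Ly6c1, while Cdh5, Tek, Emcn and Flt1 were well above background on no array, and Cldn5 (-0.13) and Kdr (-0.01) were above it on all 6 and not called. By its design the gate leaves out most of these cells, such as B cells, which mostly lack CD11b, and endothelial cells, which lack CD45. How many of them the sorted samples still held was not tested. The part of these cells in the receptor values was not tested either.

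Of 91 further genes of Fc receptor signalling, 11 were called (12.1%), 9 lower and 2 higher in B41KO, against the 5.45% of all genes given above, and their median log2 fold change was -0.07. All 11 probes were well above background on all 6 arrays, and calls were scattered over the 5 groups rather than gathered in one. Each group is given below in the order from the membrane inwards.

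Among 16 other Fc receptors and their partners, Fcrl1 was higher and Fcrls lower. Fcrl1, a receptor-like membrane protein best known from B cells, had log2 signals of 9.79, 9.75 and 9.74 in B41HET and 10.85, 10.94 and 10.87 in B41KO. The genotypes lay more than 1 log2 unit apart with little spread in either, a log2 fold change of 1.13 (SE 0.067, adjusted p = 0.00218 by limma), and its other two probes, at 1.38 and 1.28, were called too. Fcrls, an Fc receptor-like protein characteristic of microglia, had 12.76, 12.74 and 12.71 in B41HET and 11.96, 12.02 and 11.95 in B41KO. Again the genotypes were well apart, with a log2 fold change of -0.76 (SE 0.065, adjusted p = 0.00581). Both calls held in each of the 6 fits with 1 sample left out. Of the other 14 genes none was called, Fcmr, Fcrla, Ms4a2 and Fcrl6 were well above background on no array, and Tyrobp, the ITAM adaptor of Trem2, was at 0.04.

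Of 12 Src-family kinases and their regulators, 3 were called lower: Src (-0.69, adjusted p = 0.0207 by limma), Fyn (-0.56, adjusted p = 0.0296) and Fgr (-0.52, adjusted p = 0.0462). The 2 probes of Fgr, a myeloid member of the family, fell alike (the other at -0.74), but the other Src probe was at 0.08 and not called, and Fyn was dim, with means of 4.65 and 4.09. Fyn lost its call with normexp background correction (-0.14, adjusted p = 0.0886 by limma) and with the 75th percentile shift (-0.44, adjusted p = 0.0658). Fgr lost its call there too, at -0.45 (adjusted p = 0.0197, under the fold threshold) and -0.53 (adjusted p = 0.0535). Lyn, which phosphorylates ITAMs in macrophages, was at -0.03 and not called.

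Of 28 adaptors and effectors that act next to Syk, 2 were called lower and 26 not called, with a list median of -0.06. Tec, a kinase that acts on phospholipase C gamma, had log2 signals of 8.22, 8.10 and 8.12 in B41HET and 7.34, 7.34 and 7.40 in B41KO. The genotypes were apart by over 0.7, and the log2 fold change of -0.79 (SE 0.070, adjusted p = 0.00631 by limma) held its call in all 6 fits with 1 sample left out. Pik3cb, a catalytic subunit of phosphoinositide 3-kinase, was at -1.18 (adjusted p = 0.0212) on its brightest probe and at 0.02 on another. Plcg2, Btk and Vav1 were at 0.01, -0.02 and 0.20 and not called.

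Of 10 inhibitory phosphatases and adaptors, Inppl1 (SHIP-2), the relative of Inpp5d, was called higher (0.64, adjusted p = 0.0209 by limma), with another probe at 0.30 and not called. Ptpn6 (SHP-1) was at -0.13 and Dok3 at -0.45, neither called. Of 25 genes of the actin machinery at the phagocytic cup, 3 were called lower and 22 were not, with a list median of -0.21. These were Pak1 (-0.77, adjusted p = 0.0229), Arpc5 (-0.64, adjusted p = 0.0403) and Dnm2 (-0.63, adjusted p = 0.0115). Other probes of Arpc5 (-0.02) and Dnm2 (0.23 and -0.25) were not called. With 1 sample left out, Dnm2 was called in 4 of 6 fits, Src, Fyn, Fgr, Pik3cb, Inppl1 and Pak1 in 1 of 6 each and Arpc5 in 0.

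**Figure D5:**
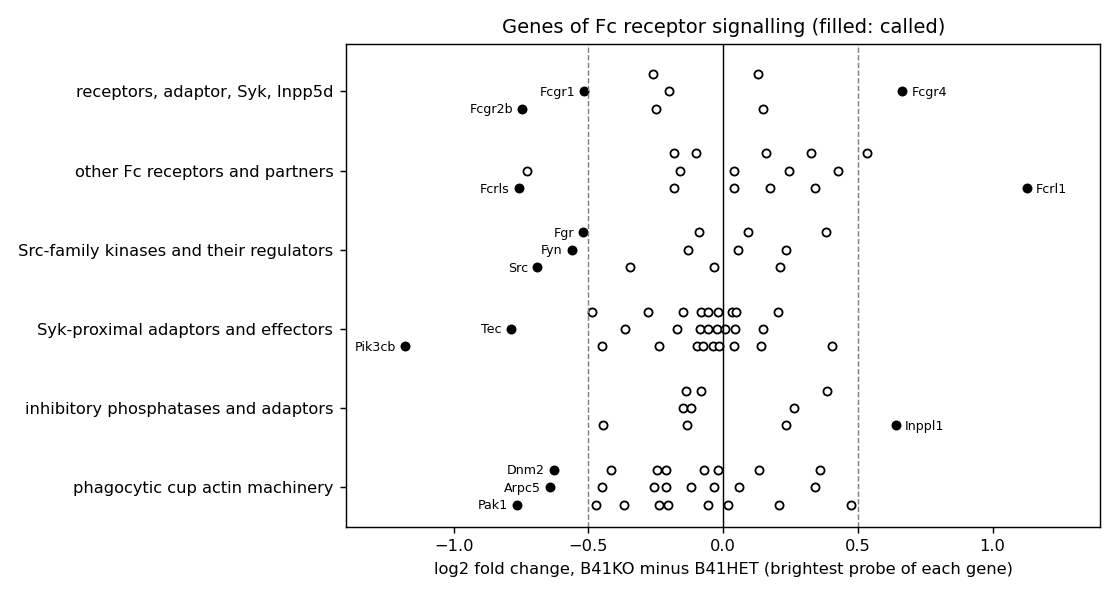
Log2 fold change (B41KO minus B41HET, brightest probe) of the 8 member genes and of 91 genes in 5 groups of Fc receptor signalling, 1 point per gene, filled and named where called, with dashed lines at the fold threshold. Filled points lie on the lower side except for Fcgr4, Fcrl1 and Inppl1, and most points lie between the dashed lines.

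On chromosome 1 the receptor genes follow in the order Fcgr2b, Fcgr4 and Fcgr3, and Fcer1g lies further along. Of the protein-coding genes from Fcgr2b to Fcer1g, 3 were called: Fcgr2b lower, its neighbour Fcgr4 higher, and Nr1i3 lower (-0.81, adjusted p = 0.0110 by limma). The others, where all 6 arrays read them well above background, ranged from -0.26 to 0.15. Neighbours at this locus thus differed in direction, and Fcgr1, on chromosome 3, lay apart from them.

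As a description, the pattern of the brighter Fcgr2b probe over the 6 samples was matched most closely, by Pearson correlation of log2 signals among 17221 genes well above background on every array, by Hnrnpul1 (r = 0.9997), Vwa7 (0.999), Ms4a6c (0.998), Zfp451 (0.998) and H2ac7 (0.997). The samples fall into 2 genotypes, so that any gene lower in B41KO correlates, and 760 genes had r above 0.95. Ms4a6c, a membrane protein of the Ms4a family found in macrophages, had a log2 fold change of -0.48.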

How the data were processed

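The 8 genes, the further gene lists and the marker lists were chosen with earlier results of these data known. For each array the authors deposited scanner output of linear intensities, which Agilent Feature Extraction 11.5.1.1 (per the submitters' processing notes) had corrected for background on that array, with no scaling between arrays. A table of log2 values deposited by the authors (56745 entries, with the same quantiles in every column) served as an alternative. Control spots and 95 to 136 spots per array flagged as outliers were left out. Log2 intensities were quantile normalized and averaged per probe, and genotypes were compared with limma 3.58.1 in R 4.3.3, following the Methods, with genotype as the only term. Figures used matplotlib 3.10.9. Between 39653 and 42718 probes per array were well above background, with 0 saturated spots. Precision is limited by the small number of arrays. Probes were named through their transcript accessions, without versions, and RefSeq genes on GRCm38.p6 (33767 of 56605 probes, 59.7%). The array design names another build, so no probe coordinates are given. Motifs were searched in RefSeq promoter windows. Named were the members, Bhlhe41, called genes of each group of Fc receptor signalling (the 4 largest where more were called), some of the cell type markers, and the 5 genes most like Fcgr2b. Lyn, Plcg2, Btk, Vav1, Ptpn6, Dok3, Tyrobp, B2m and Nr1i3 were added after their values were seen. The limma script was tested on simulated data. Alternatives were a 75th percentile shift, the authors' values, normexp with an offset of 50, removal of probes that fewer than 3 arrays held well above background, retention of outlier spots, trend and robust variance, a block for replicate number or for slide row, omission of each sample in turn, no fold threshold, and the mean or lowest-p probe of a gene.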

Additional observations from a re-analysis of the deposited data

How the results depend on the processing

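Of 56601 probes 2867 were called, and this count was 1500 with normexp, 444 with the slide row as a block, 42 with the replicate number as a block and between 792 and 1525 with 1 sample left out. Of the member probes (4 called) 0 were called with either block (7 at an unadjusted p of 0.05 or less by limma with the replicate block, 5 with the slide row) and 1 to 2 with 1 sample left out. Of the member genes (3 called) 0 were called with either block (6 and 4 unadjusted) and 0 to 1 with 1 sample left out. Of the 91 further genes (11 called) 0 were called with the replicate block (31 unadjusted), 1 with the slide row (29 unadjusted), 18 without a fold threshold and 3 to 7 with 1 sample left out. With the replicate block the adjusted p by limma was 0.0985 and 0.0632 for the Fcgr2b probes, 0.104 for Fcgr1 and 0.0804 for Fcgr4, at unchanged log2 fold changes. The replicate numbers come from the titles, and the deviations of same-numbered samples from their group means correlated at only 0.028, 0.014 and 0.048, so that the samples share a number and no more. Fcgr1 also missed a threshold with the 75th percentile shift (-0.51, adjusted p = 0.0519 by limma), the authors' values (-0.48) and normexp (-0.47). That shift moved the median log2 fold change of all probes from 0.015 to 0.13. Inpp5d, not called, turned to -0.062 with the slide row, -0.0056 without B41HET replicate 3 and -0.010 without B41KO replicate 3, the lowest of a range up to 0.23 with 1 sample left out. The cause of these changes was not tested. The other member probes and the 3 per-array differences kept their direction under every alternative run, the other Fcgr2b probe included for the latter.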
